A study of Caenorhabditis elegans with 3 samples.

Results

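Dissected germlines of Caenorhabditis elegans in which P granule components had been knocked down by RNA interference (P granule RNAi) were compared with germlines of worms fed an empty vector (EV). The 4 libraries of each group were chosen by the group names of the deposited table, which gave 8 of the 12 libraries of the study. The other 4 came from csr-1 RNAi germlines. All 3 groups were young adult hermaphrodites of the wild-type strain N2, the F1 progeny of worms on feeding RNAi since the first larval stage at 24 °C. P granule RNAi worms received the food that the labels credit to Updike et al. The labels do not list the genes it targets; from general knowledge of the study they are the helicase genes glh-1 and glh-4 and the scaffold genes pgl-1 and pgl-3. The csr-1 RNAi bacteria came from the Ahringer library, and EV worms ate HT115 bacteria with the L4440 plasmid. Each replicate pooled 400 to 500 gonads cut at the bend of the arm, so a library also holds whatever sheath, sperm or other tissue came along. The RNAi started in the parents, and the degree of knockdown in each gonad is not known from a pool.

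P granules are condensates of RNA and protein that sit on the nuclear pores of C. elegans germ cells. PGL-1 and PGL-3 are their scaffold proteins, and the GLH proteins are RNA helicases of the Vasa family with repeats like those of nuclear pore proteins. The granules hold mRNAs leaving the nucleus together with Argonaute proteins and their small RNAs, and worms that lack several components become sterile.

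Poly(A) RNA was measured as normalised reads, that is reads per gene after scaling by the authors' size factor for each library. Reads in genes numbered 30.1, 21.8, 22.9 and 18.4 M in P granule RNAi libraries orig, 1, 2 and 3, and 29.8, 24.4, 26.2 and 23.2 M in EV libraries orig, 1, 2 and 3. The median SD of a gene's log2 value within a group was 0.37 for P granule RNAi and 0.28 for EV. The design text describes 4 biological replicates per condition, and what orig means is not given. The germline label held on markers: the P granule component genes had mean log2 levels of 12.86 to 13.27 in P granule RNAi and 13.18 to 13.41 in EV, against 8.50 to 9.04 and 8.17 to 8.83 for muscle genes.

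Few genes differed between P granule RNAi and EV germlines beyond the spread of the libraries. Of 11345 genes tested, 4 fell (0.0353%) and 3 rose (0.0264%) by limma at a Benjamini-Hochberg adjusted p under 0.05, together 0.0617% of the genes. The 4 that fell were the target genes pgl-1, pgl-3 and glh-4 and the gene next to glh-4, T12F5.2. The 3 that rose were Y45F10C.6, nssp-37 and timm-17B.2. For all 7 the 4 P granule RNAi libraries lay beyond the 4 EV libraries. Without adjustment 1560 genes (13.8%) had a limma p under 0.05, 710 of them higher (6.26%) and 850 lower (7.49%). edgeR called 7 genes, all 7 shared with limma. DESeq2 called 92 of the 9799 genes to which it gave an adjusted p (0.939%), 44 higher (0.449%) and 48 lower (0.49%). The count also depended on the libraries that shared the fit. With P granule RNAi and EV alone limma called 10 genes, 4 higher and 6 lower. Without csr-1 RNAi library 3 limma called 194 genes (1.71%), 42 higher (0.37%) and 152 lower (1.34%), and all 7 were among them.

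The scaffold gene pgl-1 had 1495, 2418, 2212 and 2746 normalised reads in P granule RNAi libraries orig, 1, 2 and 3, against 19342, 24248, 23906 and 16123 in EV. Its log2 fold change was −3.25 (SE 0.19, adjusted p = 3.01e-06). The second scaffold gene, pgl-3, had 2181.5, 2040, 1489 and 2012 normalised reads under P granule RNAi, against 13270, 12011, 13422 and 9704 in EV, a log2 fold change of −2.65 (SE 0.15, adjusted p = 3.01e-06). Each P granule RNAi library was far below each EV library for both genes. The helicase gene glh-4 had 1530, 1437, 1496 and 1596 normalised reads under P granule RNAi, against 7629, 7620, 7987 and 5344 in EV (log2 fold change −2.22, SE 0.16, adjusted p = 1.97e-05). The spread within P granule RNAi was small, and EV library 3 stood below the other EV libraries for all 3 genes.

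The fourth target did not pass the test. The helicase gene glh-1 had 16538, 16164, 18726 and 16989 normalised reads under P granule RNAi, against 22871, 29600, 29360 and 18080 in EV. The groups overlapped, since P granule RNAi library 2 lay above EV library 3. The log2 fold change was −0.52 (SE 0.16, adjusted p = 0.299). The gene has 2769 exon bases. With each library's trend with exon length taken out, as described below, its log2 fold change was −0.22 (limma adjusted p = 0.703). Fewer germ cells and less RNA per cell cannot be told apart in these pools, here for glh-1 and below for groups of germline genes that differ by like amounts.

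**Figure D1:**
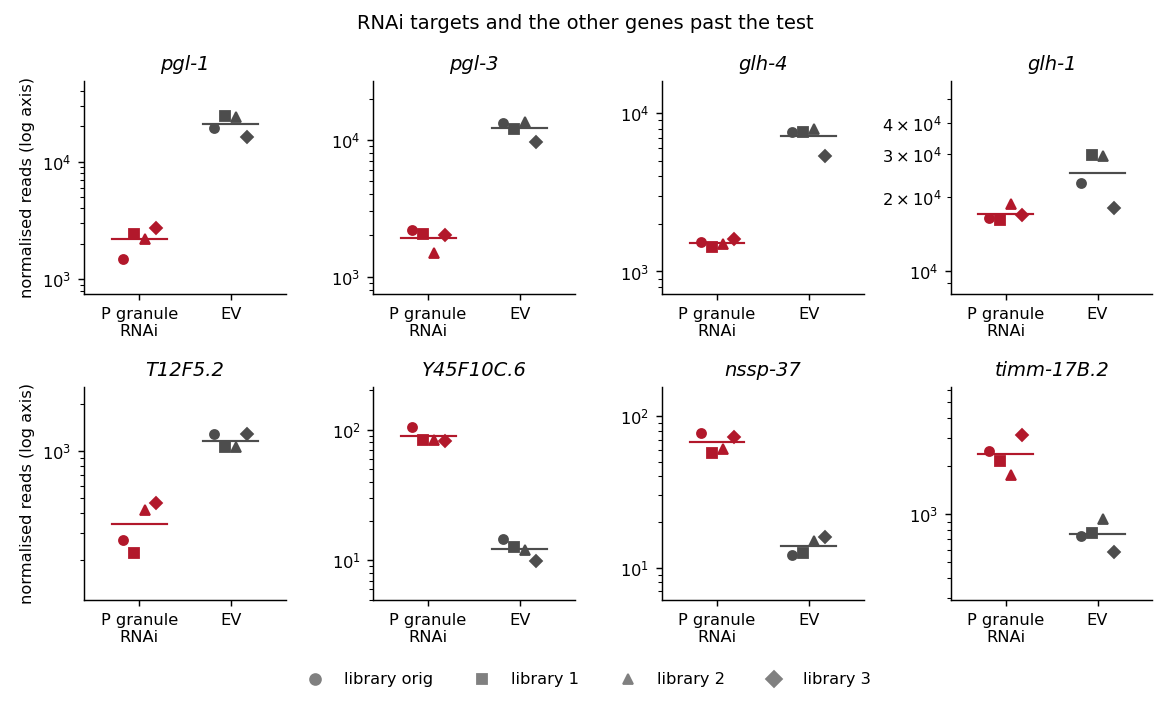
Normalised reads (log axis) of the 4 RNAi targets and the other 4 genes past the test, with 1 point per library and a line at the group mean. pgl-1, pgl-3, glh-4 and T12F5.2 are lower and Y45F10C.6, nssp-37 and timm-17B.2 higher in all 4 P granule RNAi libraries, while glh-1 overlaps.

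T12F5.2 is the next gene after glh-4 on the same strand of chromosome I in the WBcel235 annotation. It had 271, 222, 417 and 464 normalised reads under P granule RNAi, against 1282, 1059, 1056 and 1277 in EV. It fell by 1.82 on the log2 scale (SE 0.22, adjusted p = 0.00487). The call was lost without the 3 libraries named orig (adjusted p = 0.144). Under csr-1 RNAi the gene had 769, 618, 716 and 593 normalised reads, so P granule RNAi was lower than csr-1 RNAi too (log2 fold change −1.03, adjusted p = 0.0121). Whether the RNAi food against glh-4 acts on this transcript was not tested.

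The other neighbours of the targets that were tested did not pass, and nhr-249 beside pgl-1 and bgnt-1.4 beside pgl-3 were not among the genes tested. him-3, whose product is a structural protein of meiotic chromosome axes, lies next to pgl-1 on the opposite strand. It had 2184, 2592, 2635 and 2881 normalised reads under P granule RNAi, against 3751, 4045, 3778 and 4500 in EV (log2 fold change −0.65, SE 0.14, adjusted p = 0.247), with no overlap. The library kit does not mark strand, so reads of genes that overlap on opposite strands cannot be told apart, but him-3 and pgl-1 do not overlap in the annotation. Beside pgl-3, the linker histone gene hil-4 had a log2 fold change of −0.44 (adjusted p = 0.345). Beside glh-1, the DEAD-box helicase gene sacy-1 had −0.54 (adjusted p = 0.36) and let-383 had 0.24 (adjusted p = 0.726). On the other side of glh-4, lin-59 had −0.75 (adjusted p = 0.318).

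Of the 3 genes that rose, Y45F10C.6 had 106, 83.7, 83.7 and 81.3 normalised reads under P granule RNAi, against 14.6, 12.56, 12 and 9.89 in EV (log2 fold change 2.76, SE 0.30, adjusted p = 0.00189). nssp-37 had 77.5, 57.1, 60.9 and 72.7 normalised reads under P granule RNAi, against 12.2, 12.56, 15 and 15.8 in EV (log2 fold change 2.19, SE 0.27, adjusted p = 0.00615). Both are genes of few reads that stood well clear of EV in each library. timm-17B.2, which encodes a subunit of the mitochondrial inner membrane import machinery, had 2487, 2136, 1759 and 3107 normalised reads under P granule RNAi, against 726, 767, 928 and 579 in EV. Its log2 fold change was 1.65 (SE 0.22, adjusted p = 0.0114).

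The 3 genes lie on chromosome IV and have summed exon lengths of 655 bases (Y45F10C.6), 314 bases (nssp-37) and 513 bases (timm-17B.2). Y45F10C.6 passed the test in each of the 25 alternative settings, with a highest adjusted p of 0.0485. timm-17B.2 lost its call in 9 of the 25 settings: without any of EV libraries orig, 1 or 3, without P granule RNAi library orig or 3, without the 3 libraries named orig, with the replicate block, and in both fits that took out exon length. nssp-37 lost its call in 4, where genes with few reads were left out, without the 3 libraries named orig and in both fits that took out exon length, described below. Over the 25 settings the log2 fold change ran from 1.22 to 1.78 for timm-17B.2 and from 1.58 to 2.29 for nssp-37. pgl-1, pgl-3 and glh-4 kept theirs in all 25.

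A wider set of genes did not overlap between the groups without passing the test. For 1383 genes (12.2%) all 4 P granule RNAi libraries lay beyond all 4 EV libraries: 582 higher (5.13%) and 801 lower (7.06%). Such counts grow when a group has fewer libraries: the number was 3030 without P granule RNAi library orig, 2339 without P granule RNAi library 1, 2092 without EV library orig and 2392 without EV library 3. With TMM scaling 466 genes were higher and 990 lower. The median log2 fold change was 0.69 for the higher set and −0.50 for the lower set. A log2 fold change of at least 1 in size was reached by 188 of the higher genes, which is 32.3% of that set and 1.66% of all genes tested. It was reached by 23 of the lower genes, 2.87% of that set and 0.203% of all genes tested. The 188 had a median EV level of 14.3 normalised reads and 30 of them were in the sperm lists described below. The 23 had a median EV level of 121 normalised reads and none was in those lists.

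Among genes with a log2 fold change of at least 1 in size and no overlap, the next in order of p on the higher side were mostly genes of few reads. C08D8.1 had 16.23, 5.07, 9.3 and 6.16 normalised reads under P granule RNAi, against 1.62, 0, 1 and 0 in EV, and R03H10.6 had 196, 127, 125 and 89.9, against 17.1, 26.2, 43 and 26.7 in EV. Both had an adjusted p of 0.247. ndx-2, named as a Nudix hydrolase gene, had 148, 122, 160 and 102 normalised reads under P granule RNAi, against 52.8, 51.3, 59 and 31.6 in EV (log2 fold change 1.45, SE 0.29, adjusted p = 0.247). The F-box gene fbxb-97 had 288, 185, 199 and 208 normalised reads under P granule RNAi, against 60.9, 100, 111 and 41.5 in EV (log2 fold change 1.56, SE 0.33, adjusted p = 0.247). C17C3.15, F39F10.2, Y57G11C.499, Y37D8A.16, F08A8.5, nstp-6, E02H9.9 and F23A7.4 had log2 fold changes between 1.06 (F23A7.4) and 1.93 (C17C3.15 and F39F10.2), all at an adjusted p of 0.247. F23A7.4 was the exception in level, with 2108, 2831, 2625 and 2628 normalised reads under P granule RNAi, against 1330, 1470, 1429 and 786 in EV.

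On the lower side the same order gave K09E3.7, with 364, 240, 253 and 217 normalised reads under P granule RNAi, against 585, 479, 607 and 465 in EV (log2 fold change −1.01, SE 0.20, adjusted p = 0.247). T08D2.4, a gene of 290 exon bases on chromosome X, had 25.08, 12.7, 16.53 and 17.2 normalised reads under P granule RNAi, against 63.4, 33.5, 68 and 50.4 in EV (log2 fold change −1.53, SE 0.32, adjusted p = 0.247). T08D2.9 had 67.1, 45.7, 26.9 and 34.5, against 110, 128, 144 and 75.1 in EV (log2 fold change −1.41, adjusted p = 0.3). T19D12.4, Y54E2A.4, F54D11.3, pqn-67, aex-1, max-1, Y73B3A.10 and T20D3.11 also lay lower in all 4 P granule RNAi libraries, with log2 fold changes between −1.001 (Y54E2A.4) and −2.80 (T19D12.4). Their adjusted p ranged up to 0.317.

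The direction of a gene's difference followed its summed exon length. Across 11221 genes with a length (98.9% of those tested), Spearman's correlation between log2 fold change and exon length was −0.57, a description over genes that share the same 8 libraries. With the genes in 5 groups of like size by length, the median log2 fold change was 0.42 in the shortest group (up to 832 bases). There 360 of 2248 genes (16%) lay above EV in all 4 libraries and 5 (0.222%) below. In the longest group (2468 bases and more) the median was −0.36, with 7 of 2243 genes (0.312%) above and 468 (20.9%) below. The 582 higher genes had a median exon length of 686 bases and the 801 lower genes one of 2726 bases, beside 1434 bases for all genes tested.

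**Figure D2:**
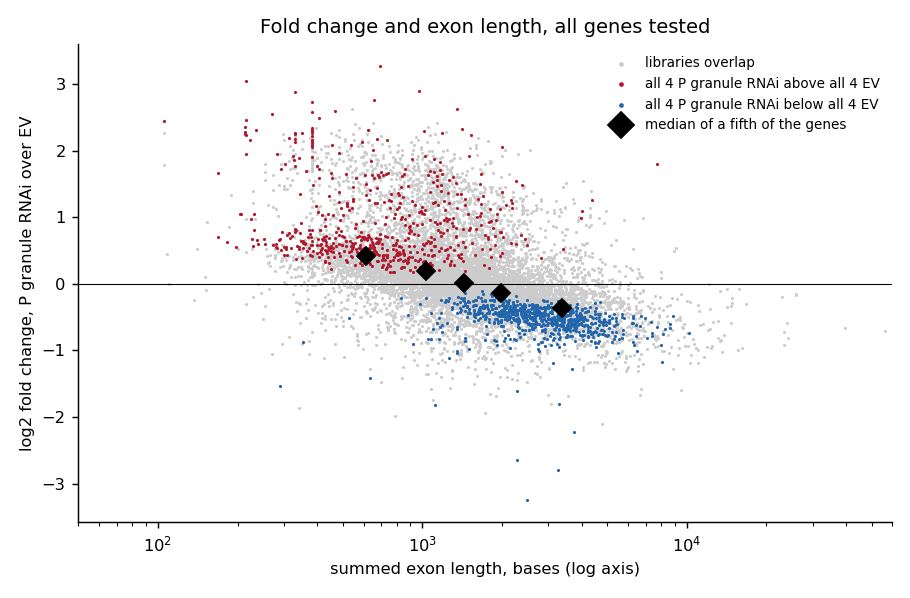
Log2 fold change of P granule RNAi over EV (y axis) against summed exon length in bases (log x axis) for each gene tested. Genes with 4 P granule RNAi libraries above the 4 EV libraries are red and those below blue, and black diamonds mark the medians of 5 groups of genes by length, which runs from 0.42 to −0.36.

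The relation was present in each of the 5 groups of genes by expression level. Among the least expressed the median log2 fold change was 0.72 for the shortest length group and −0.10 for the longest. Among the most expressed these medians were 0.34 and −0.45. The share of genes below EV in all libraries also rose with expression level. It was 0.529% in the least expressed group, 11.1% in the fourth and 17.8% in the most expressed. The germline lists given below, sperm lists aside, had mean levels in the range of the fourth and the most expressed group. Single libraries differed by exon length in the same way as the groups. Relative to the mean of all 12 libraries, genes of the shortest group had a median deviation of 0.02, 0.27, 0.21 and 0.31 (log2) in P granule RNAi libraries orig, 1, 2 and 3, and of −0.13, −0.28, −0.34 and −0.18 in EV. Genes of the longest group deviated by 0.06, −0.20, −0.17 and −0.30 in P granule RNAi and by 0.17, 0.31, 0.38 and 0.10 in EV. P granule RNAi library orig was nearly flat, and libraries 1 and 2 of EV were the steepest of their group.

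**Figure D3:**
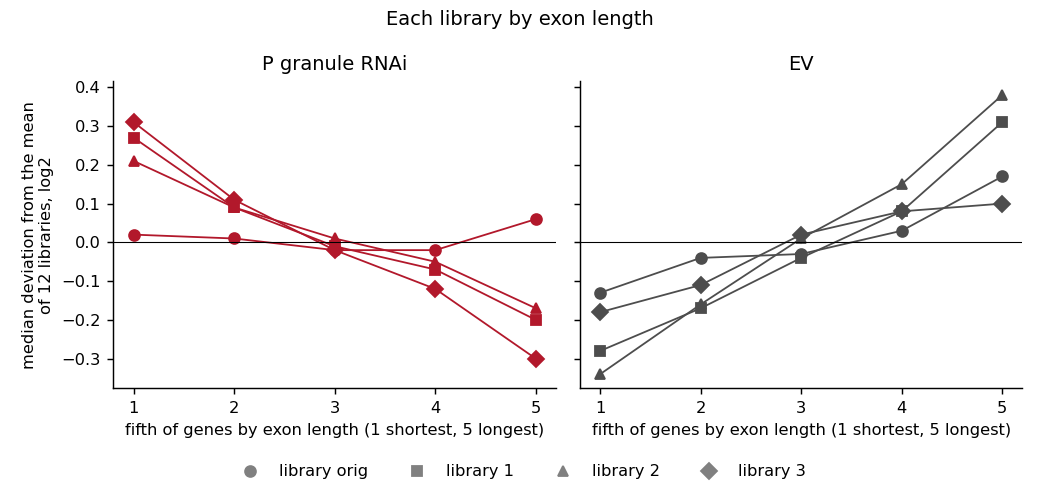
Median deviation (log2) of the genes in 5 groups by exon length from their mean over 12 libraries, with 1 line per library, P granule RNAi on the left and EV on the right. Lines 1, 2 and 3 of P granule RNAi fall with length, its library orig stays between −0.02 and 0.06, and all 4 EV lines rise.

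The csr-1 RNAi libraries spread over the same range, with Spearman's correlation between deviation and length from 0.33 in library orig to −0.52 in library 3, so such slopes also differed within a group. The part of RNA quality, fragment size or amplification in the slopes was not tested, and neither was the part of the RNAi. Because the slope touches most gene lists, most lists are given below also on values from which each library's trend with exon length was taken out, a choice made after the data had been seen. On these values the non-overlapping genes numbered 709 (6.32%), 303 higher (2.7%) and 406 lower (3.62%). The test called 5 genes (0.0446%): pgl-1, pgl-3, glh-4, T12F5.2 and Y45F10C.6. The 194 genes called without csr-1 RNAi library 3 likewise became 6 when the trend was taken out.

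Genes of meiotic chromosome pairing and recombination were mostly lower under P granule RNAi, by less than the test could call. None of the 47 was called by limma or edgeR, and DESeq2 called him-17 and him-3 as lower. All 4 P granule RNAi libraries lay below EV for 19 of them (40.4%, beside 7.06% of all genes tested) and above EV for 1. Their median log2 fold change was −0.37, beside 0.03 for all genes tested. With the length trend taken out the median was −0.26. On those values 18 were below EV in all libraries (38.3%, beside 3.62% of all genes) and none above. The mean log2 level of the list was 10.82, 10.57, 10.64 and 10.55 under P granule RNAi, against 10.96, 10.97, 11.01 and 10.96 in EV, with no overlap. Leaving out any of these 8 libraries left between 19 and 24 members below EV. The number of all 11345 genes below EV also moved over these settings, from 830 to 1707, beside 801 with all libraries. The 830 came without EV library 2, where 19 members lay below. The 1707 came without P granule RNAi library orig, where 23 members did.

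Members named here and in the lists that follow were picked by their role after their values were seen, beside the 2 with the lowest p of each list. The synaptonemal complex, which holds paired chromosomes together, had 3 such members. syp-4 had 4193, 2842, 3325 and 2796 normalised reads under P granule RNAi, against 5443, 5636, 5520 and 4724 in EV (log2 fold change −0.71, SE 0.28, adjusted p = 0.337). syp-6 had 2623, 1620, 2430 and 2082 under P granule RNAi, against 3369, 3626, 3736 and 3592 in EV (log2 fold change −0.73, SE 0.24, adjusted p = 0.3). syp-5 had a log2 fold change of −0.57 (adjusted p = 0.389). For each of them P granule RNAi library orig was the nearest to EV.

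Among genes of crossover formation, him-14 and msh-5 encode the partner subunits of a meiotic MutS complex. him-14 had 1028, 682, 1032 and 916 normalised reads under P granule RNAi, against 1336, 1469, 1547 and 1461 in EV (log2 fold change −0.68, SE 0.20, adjusted p = 0.284). msh-5 had 1959, 1206, 1414 and 1249, against 2298, 2693, 2713 and 2260 in EV (log2 fold change −0.80, SE 0.30, adjusted p = 0.329). The Bloom helicase gene him-6 had −0.76 (adjusted p = 0.279), the crossover regulator gene zhp-3 −0.38 (adjusted p = 0.329) and the BRCA1 homologue brc-1 −0.57 (adjusted p = 0.329). him-17, a chromatin gene required for meiotic breaks, had 4117, 3240, 4080 and 3561 normalised reads under P granule RNAi, against 5059, 6068, 6174 and 5788 in EV (log2 fold change −0.63, SE 0.14, adjusted p = 0.247).

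The member that lay above EV was htp-2, a paralogue of him-3 in the chromosome axis. It had 2671, 4889, 3426 and 3469 normalised reads under P granule RNAi, against 2307, 2452, 2534 and 2519 in EV (log2 fold change 0.53, SE 0.20, adjusted p = 0.329). Its sequence is close to that of htp-1, and how reads of the pair were counted is not known. Without csr-1 RNAi library 3, 12 of the 47 meiosis genes passed the test as lower and none as higher, beside 152 lower of all 11345 genes (1.34%). Those 152 had a median exon length of 3201 bases. With the length trend also taken out, 6 genes of all were called in that setting, 5 of them among the 7 of the main test.

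Genes of germline small RNA pathways, whose Argonautes and polymerases work in and next to P granules, lay in the same direction. None of 51 was called by limma or edgeR, and DESeq2 called sid-1 and rde-2 as lower. All 4 P granule RNAi libraries lay below EV for 15 (29.4%, beside 7.06% of all genes) and above EV for none. The median log2 fold change was −0.39. These are long genes, with a median exon length of 3055 bases. With the length trend taken out the median was −0.15. On those values 11 were below EV in all libraries (21.6%, beside 3.62% of all genes) and 1 above. The mean log2 level of the list was 11.19, 10.87, 10.96 and 10.79 under P granule RNAi, against 11.31, 11.36, 11.38 and 11.19 in EV. P granule RNAi library orig equalled EV library 3 to 2 decimals. The number below EV was 26 without P granule RNAi library orig, where 1707 of all 11345 genes lay below. It was 24 without EV library 3, where 1227 of all 11345 genes did. With all libraries 801 of all genes lay below.

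rde-2, a gene of the mutator complex that amplifies small RNAs, had 1637, 1206, 1550 and 1364 normalised reads under P granule RNAi, against 2000, 2178, 2197 and 2527 in EV (log2 fold change −0.63, SE 0.14, adjusted p = 0.247). sid-1, which encodes the channel that lets double-stranded RNA into cells, had 2069, 1435, 1355 and 1367, against 2874, 2751, 2777 and 2460 in EV (log2 fold change −0.82, SE 0.19, adjusted p = 0.247). The nuclear RNAi gene nrde-2 had 3544, 2016, 2706 and 2154, against 4436, 5151, 5167 and 3645 in EV (log2 fold change −0.84, SE 0.28, adjusted p = 0.316). For all 3 genes the groups did not overlap, and nrde-2 came closest, with P granule RNAi library orig just under EV library 3. The RNA-dependent RNA polymerase gene ego-1 had −0.83 (adjusted p = 0.355) and its partner helicase drh-3 −0.77 (adjusted p = 0.389), and drh-1, which senses viral RNA, had −0.94 (adjusted p = 0.329). Without csr-1 RNAi library 3, sid-1, drh-1, rde-2, ego-1 and nrde-2 passed the test as lower, where 1.34% of all genes did. With the length trend also taken out, 6 genes of all were called in that setting, 5 of them among the 7 of the main test.

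The Argonaute gene csr-1 is both a P granule component and the target of the study's other RNAi. It had 15757, 15005, 16887 and 14389 normalised reads under P granule RNAi, against 22790, 24116, 25470 and 21838 in EV, with no overlap (log2 fold change −0.60, SE 0.22, adjusted p = 0.317). With the length trend taken out the log2 fold change was −0.21, still without overlap.

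The 33 P granule components other than the targets showed smaller differences, and none was called. All 4 P granule RNAi libraries lay below EV for 6 (18.2%, beside 7.06% of all genes) and above for none, with a median log2 fold change of −0.21. The list's mean level lay in the range of the most expressed of the 5 groups of genes by level. In that group 17.8% of genes lay below EV, near the share of the list. With the length trend taken out 2 lay below EV (csr-1 and gld-2, 6.06% beside 3.62% of all genes), with a median of −0.06. The 6 became 10 without P granule RNAi library orig, where 1707 of all 11345 genes lay below EV. The 6 also became 10 without EV library 3, where 1227 of all 11345 genes did. With all libraries 801 of all genes lay below. gld-3, a translational regulator that works with the poly(A) polymerase gene gld-2, had 10144, 7968, 8720 and 8035 normalised reads under P granule RNAi, against 11588, 11955, 13821 and 13593 in EV (log2 fold change −0.55, SE 0.15, adjusted p = 0.274). ifet-1, a translational repressor, had −0.49 (adjusted p = 0.284), gld-2 −0.87 (adjusted p = 0.316), meg-4 −0.43 (adjusted p = 0.316) and mip-1, which encodes a partner of the helicases, −0.24 (adjusted p = 0.337). Of the close relatives of the targets, pgl-2 had a log2 fold change of −0.10, glh-2 of −0.68 and glh-3 of −0.28. Each overlapped EV.

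Other germline lists leaned the same way on the deposited values and less once length was taken out. Of 27 germline chromatin genes 7 lay below EV in all libraries (25.9%, beside 7.06% of all genes), with a median log2 fold change of −0.41, and 4 (14.8%, beside 3.62% of all genes) with a median of −0.14 after the length trend was taken out. They included dpl-1, a partner of E2F, with 3174, 3282, 2853 and 2785 normalised reads under P granule RNAi, against 3635, 4215, 4786 and 4693 in EV (log2 fold change −0.51, SE 0.13, adjusted p = 0.268), and the histone methyltransferase genes mes-2 (−0.54, adjusted p = 0.343) and mes-4 (−0.59, adjusted p = 0.317). Of 40 sex determination genes 11 lay below EV (27.5%) and 2 above (mag-1 and rsp-4), with a median of −0.21, and 2 below (5.0%) and none above with a median of −0.02 after length was taken out. Of 35 germline proliferation genes 9 lay below (25.7%), among them the Notch receptor gene glp-1 with −0.58 (adjusted p = 0.343) and cyclin E gene cye-1 with −0.43 (adjusted p = 0.284), and 3 (8.57%) after length was taken out. Of 38 oogenesis and eggshell genes 5 lay below (13.2%), and none after length was taken out. The mean levels of the proliferation and oogenesis lists lay in the range of the most expressed of the 5 groups by level. In that group 17.8% of genes lay below EV. No member of these 4 lists was called by limma. Leaving out P granule RNAi library orig gave 16 chromatin genes below EV, where 1707 of all 11345 genes lay below. Without EV library 3 the number was 11 chromatin genes, where 1227 of all 11345 genes lay below. Leaving out P granule RNAi library 1 gave 11 oogenesis genes, where 1248 of all 11345 genes did.

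Sperm transcripts were at a higher mean level under P granule RNAi, with wide spread among libraries of both groups. None of 30 major sperm protein genes was called by limma, edgeR or DESeq2, while the authors' deposited table gave 19 of them an adjusted p under 0.05 as higher. All 30 had a positive log2 fold change (52.4% of all genes did). The genes encode near-identical copies of the main cytoskeletal protein of worm sperm, so their counts are not independent and how reads were split among them is uncertain. Their median log2 fold change was 2.04, and 1.51 with the length trend taken out. All 4 P granule RNAi libraries lay above EV for 13 (43.3%, beside 5.13% of all genes tested). After length was taken out they did so for 2 (6.67%, beside 2.7% of all genes). Their mean log2 level was 8.08, 6.84, 9.16 and 7.85 under P granule RNAi, against 6.96, 6.69, 5.05 and 5.30 in EV, so P granule RNAi library 1 lay below EV library orig. Without P granule RNAi library 1 the number above EV was 28, where 9.62% of all genes lay above. Without EV library orig it was 21, where 8.7% did.

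msp-3 had 525, 170, 709 and 284 normalised reads under P granule RNAi, against 126, 75.3, 30 and 30.6 in EV (log2 fold change 2.73, SE 1.07, adjusted p = 0.337). The spread within each group was itself several-fold. The 35 tested genes of small sperm protein families (ssp, sss, ssq and nsp genes) had a median log2 fold change of 1.94. Of them 14 lay above EV in all libraries (40%, beside 5.13% of all genes) and none below. That number was 25 without P granule RNAi library 1 and 22 without EV library orig, where 9.62% and 8.7% of all genes lay above. With the length trend taken out the median was 1.33 and 5 lay above EV (14.3%, beside 2.7% of all genes). nspd-5 had 503, 198, 882 and 357 normalised reads under P granule RNAi, against 118.6, 96.3, 23 and 23.7 in EV (log2 fold change 3.04, SE 1.03, adjusted p = 0.316). For both genes P granule RNAi libraries 2 and orig were the highest and EV libraries 2 and 3 the lowest.

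The 37 sperm function genes, which act in spermatid maturation and motility, had a median log2 fold change of 1.11. It was 1.7 without P granule RNAi library 1 and 0.68 without P granule RNAi library 2. All 4 P granule RNAi libraries lay above EV for 3 of them (8.11%, beside 5.13% of all genes) and below for 1 (2.7%, beside 7.06%), which is near those shares. With the length trend taken out the median was 1.24, with 1 above and none below. The 3 became 10 without P granule RNAi library 1 and 7 without EV library orig, where 9.62% and 8.7% of all genes lay above. The 3 were msd-1, msd-2 and msd-4, which encode partners of the major sperm protein filaments, and the 1 below was spe-39, a vesicle trafficking gene with −0.24 (adjusted p = 0.355). spe-6, a kinase gene, had 305, 283, 315 and 259 normalised reads under P granule RNAi, against 207, 189, 260 and 160 in EV, where P granule RNAi library 3 lay just below EV library 2 (log2 fold change 0.52, SE 0.16, adjusted p = 0.299). None of these lists had a member called by limma, edgeR or DESeq2. Whether more stored or residual sperm came along with the gonads of some libraries was not tested.

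**Figure D4:**
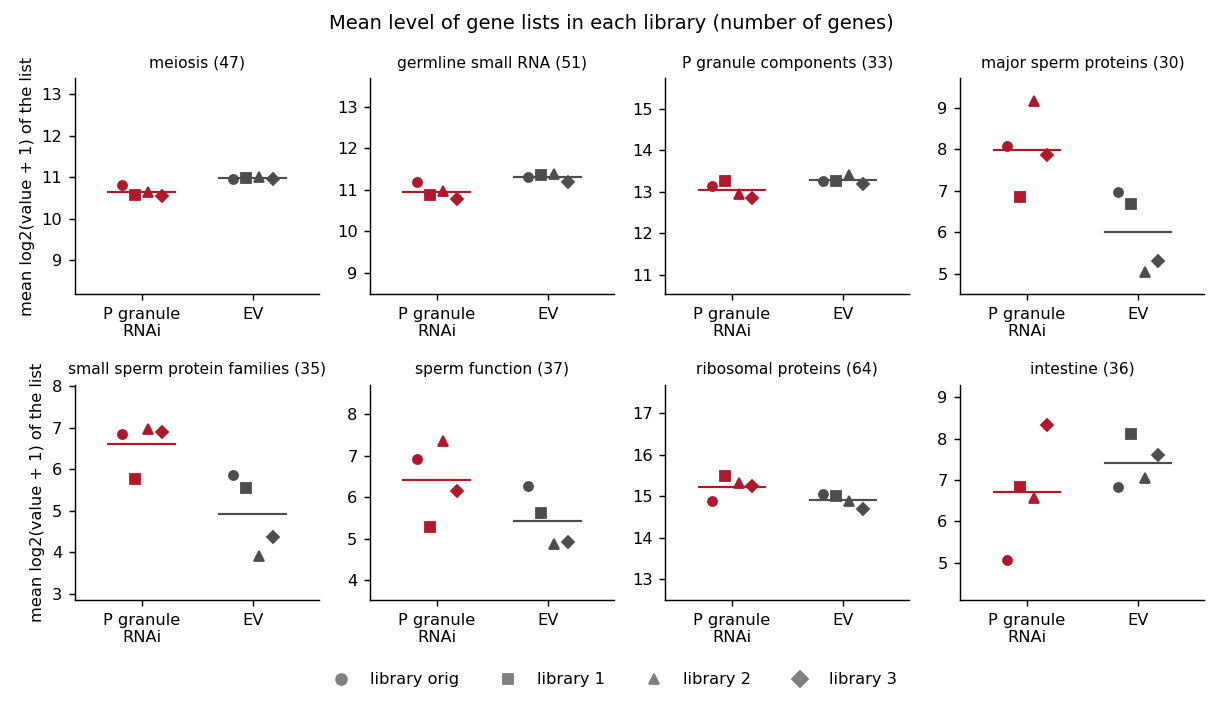
Mean log2(value + 1) of the genes of 8 lists in each library, on axes of equal span, with a line at the group mean and the number of genes in brackets. Meiosis genes are lower in all 4 P granule RNAi libraries by a small step, while the 3 sperm lists and the intestine list vary far more within groups.

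Lists of ribosomal protein, histone, mitochondrial ribosomal protein and proteasome genes had positive medians on the deposited values, which shrank or turned once length was taken out. Their median exon lengths were 510, 411, 742 and 1235 bases. Of 64 cytoplasmic ribosomal protein genes 57 had a positive log2 fold change and 8 lay above EV in all libraries (12.5%, beside 5.13% of all genes), with a median of 0.26. With the length trend taken out the median was −0.12 and none lay above EV. rpl-39 had 22896, 27400, 26357 and 27721 normalised reads under P granule RNAi, against 20814, 14683, 14496 and 16347 in EV (log2 fold change 0.67, SE 0.24, adjusted p = 0.32), and with length taken out its log2 fold change was −0.03. Of 23 histone genes 6 lay above EV (26.1%), with a median of 0.54, and none with a median of 0.05 after length was taken out. Most histone mRNAs lack a poly(A) tail, and the copies share sequence. Of 66 mitochondrial ribosomal protein genes 9 lay above (13.6%) and 1 below, with a median of 0.27, and none above and 1 below with a median of 0.05 after length was taken out. Of 33 proteasome genes 6 lay above (18.2%), with a median of 0.14, and none with a median of 0.09 after length was taken out. Without P granule RNAi library orig the numbers above EV were 31 ribosomal, 37 mitochondrial ribosomal and 12 proteasome genes, in a setting where 1323 of all genes (11.7%) lay above EV. Without EV library orig 19 ribosomal genes lay above, where 8.7% of all genes did. Without EV library 3 the number was 28 mitochondrial ribosomal genes, where 10.3% of all genes lay above. None of these genes was called.

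**Figure D5:**
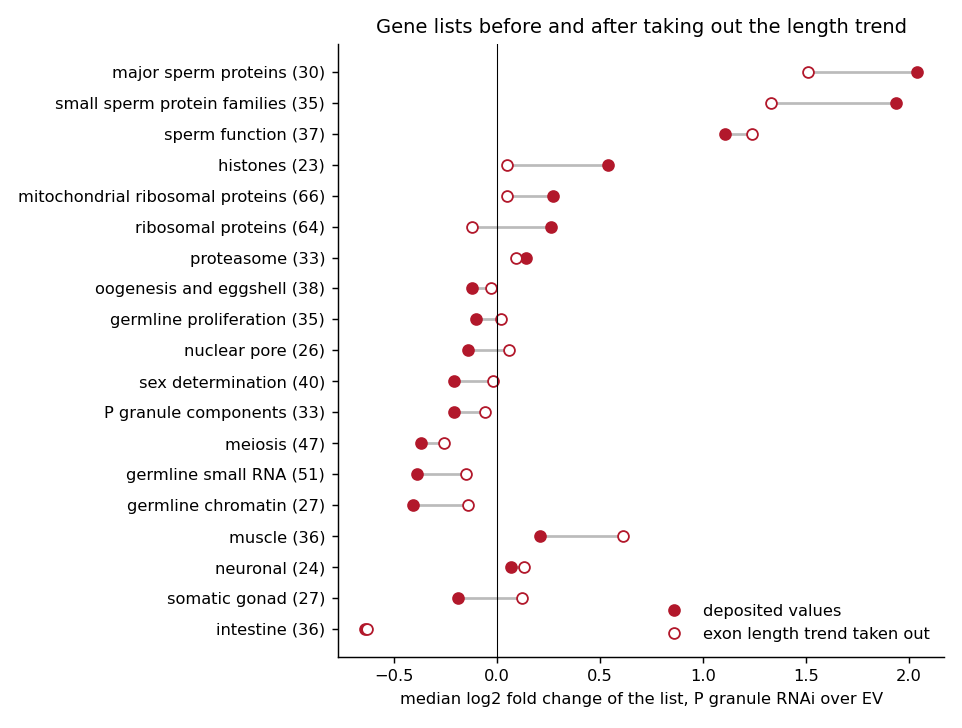
Median log2 fold change of each gene list, P granule RNAi over EV, on the deposited values (filled) and after each library's trend with exon length was taken out (open), with the number of genes in brackets. The sperm lists stay above 1 and meiosis stays at −0.26, while histones, ribosomal proteins and proteasome move to between −0.12 and 0.09.

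Markers of tissues other than the germline varied more between single libraries than between the groups. None of 36 muscle genes and none of 36 intestine genes lay beyond EV in all libraries, and 1 of 24 neuronal genes (4.17%) and 3 of 27 somatic gonad genes (11.1%) lay below, near the 7.06% of all genes. After length was taken out none of the neuronal genes and 1 of the somatic gonad genes (3.7%) lay below, and the somatic gonad median was 0.12, beside −0.19 on the deposited values. The median log2 fold change was 0.21 for muscle and −0.64 for intestine, and 0.61 and −0.63 with the length trend taken out. Without EV library 1 the muscle median was 0.46 and without P granule RNAi library orig 0.34. The intestine median was −1.23 without P granule RNAi library 3 and −0.27 without P granule RNAi library orig. The intestine list had a mean log2 level of 5.08, 6.83, 6.57 and 8.32 under P granule RNAi, against 6.83, 8.12, 7.04 and 7.61 in EV, so single P granule RNAi libraries were both the lowest and the highest of the 8. The muscle list had 8.54, 8.50, 8.99 and 9.04, against 8.56, 8.83, 8.35 and 8.17 in EV. Without P granule RNAi library 3, 13 of the 36 intestine genes lay below EV, where 932 of all 11345 genes did. Without P granule RNAi library orig, 11 of the 36 muscle genes lay above EV and 2 below. In that setting 1323 of all 11345 genes lay above and 1707 below. In the somatic gonad list, whose markers include the sheath around the germ cells, the filamin gene fln-1 had a log2 fold change of −0.92 (adjusted p = 0.345). fln-1 has 8006 exon bases, and with the length trend taken out its log2 fold change was −0.29 and the groups overlapped. No member of these 4 lists was called. Their part in the differences of other lists was not tested.

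By chromosome, the share of genes above EV in all libraries ran from 2.88% on X to 5.91% on IV, and the share below EV from 3.34% on X to 9.05% on I. The X chromosome is largely silent in germ cells for much of their development. Of its 1318 tested genes 38 lay above and 44 below, with a median log2 fold change of −0.06, and none was called by limma or edgeR. DESeq2 called 4 of the X-linked genes as higher and 3 as lower, beside 0.449% and 0.49% of all genes to which it gave an adjusted p. After length was taken out 29 lay above (2.2%, beside 2.7% of all genes) and 16 below (1.21%, beside 3.62%). Without P granule RNAi library orig 129 lay above and 193 below, where 1323 of all 11345 genes (11.7%) lay above and 1707 below.

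The authors' deposited table, made with DESeq, gave 0.558% of 18639 genes an adjusted p under 0.05, 89 higher (0.477%) and 15 lower (0.0805%). Of the 89 higher genes of the authors' deposited table, 39 were in the 3 sperm lists, and for 42 of the 89 the 4 P granule RNAi libraries lay above the 4 EV libraries. R09E10.2, named here after its values were seen, had a fold change of 12.2 and an adjusted p of 9.37e-07 in the authors' deposited table. Its normalised reads were 654, 79.9, 240 and 108 under P granule RNAi, against 35.7, 29.3, 7 and 16.8 in EV. Library orig was the highest of both groups, and limma gave R09E10.2 an adjusted p of 0.247.

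Of the 15 lower genes of the authors' deposited table, only pgl-1, pgl-3 and glh-4 did not overlap between the groups. The other 12, among them abu-14, pqn-63, pqn-74 and the idpc genes, named here after their values were seen, were high in EV library orig and to a lesser degree in EV library 1. abu-14 had 4.43, 5.07, 1.03 and 2.46 normalised reads under P granule RNAi, against 188, 70.1, 3 and 1.98 in EV. idpc-4 had 0 in all 4 P granule RNAi libraries, against 37.4, 8.37, 0 and 0 in EV. In EV libraries 2 and 3 the highest value of the 12 genes was that of idpc-1 in library 2, at 7.998 normalised reads.

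Set against csr-1 RNAi, P granule RNAi differed in 1080 genes (9.52%), 484 higher (4.27%) and 596 lower (5.25%). The count was 716 without P granule RNAi library 2, 682 without P granule RNAi library 3, 565 without csr-1 RNAi library 1, 614 without csr-1 RNAi library 2 and 1984 without csr-1 RNAi library 3. All targets fell relative to csr-1 RNAi: glh-4 had a log2 fold change of −3.44 (adjusted p = 3.32e-07), pgl-1 of −3.32 (adjusted p = 1.55e-06), pgl-3 of −2.43 (adjusted p = 2.05e-06) and glh-1 of −1.90 (adjusted p = 4.23e-05). glh-1 had 74352, 64398, 61186 and 55940 normalised reads under csr-1 RNAi, above all P granule RNAi and EV libraries. glh-4 had 19596, 16243, 17999 and 12856 under csr-1 RNAi, also above all P granule RNAi and EV libraries. The 3 genes that rose against EV were also higher than under csr-1 RNAi. timm-17B.2 had 308, 325, 355 and 537 normalised reads under csr-1 RNAi (log2 fold change 2.64, adjusted p = 4.23e-05), Y45F10C.6 had a log2 fold change of 2.84 (adjusted p = 0.000187) and nssp-37 one of 1.56 (adjusted p = 0.00429).

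Of the 47 meiosis genes 12 were lower under P granule RNAi than under csr-1 RNAi (beside 5.25% of all genes tested) and 1, pch-2, was higher. They included him-3 (log2 fold change −1.13, adjusted p = 0.000593), dsb-3, a gene of meiotic break formation (−1.16, adjusted p = 0.000947), and syp-6 (−1.22, adjusted p = 0.00738). Among 1318 X-linked genes 118 were higher and 15 lower under P granule RNAi than under csr-1 RNAi. Of all genes tested, 4.27% were higher and 5.25% lower. The median log2 fold change of the X-linked genes was 0.29 against csr-1 RNAi and −0.06 against EV. The nuclear hormone receptor gene nhr-11 had 38.4, 50.7, 35.1 and 35.7 normalised reads under P granule RNAi, against 725, 1014, 847 and 555 under csr-1 RNAi (log2 fold change −4.24, adjusted p = 2.05e-06). In EV it had 16.25, 26.2, 17 and 21.75, so each P granule RNAi library lay above each EV library (log2 fold change 0.95, adjusted p = 0.274). In none of the sperm lists was a major or small sperm protein gene called between the RNAi groups. Of the 37 sperm function genes 2 were lower under P granule RNAi, near the 5.25% of all genes tested. spe-6 was among them (log2 fold change −1.42, adjusted p = 0.000299). It had 851, 773, 745 and 744 normalised reads under csr-1 RNAi, above all P granule RNAi and EV libraries.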

How the data were processed

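Poly(A) RNA was read as single 100-base reads from a library kit that does not mark strand, per the labels' protocols. The submitters' processing notes name TopHat2 2.0.8b, HTSeq 0.5.4p3, DESeq 1.1.2.1, CASAVA and SAMtools 0.1.18. A genome build is not given in the sources used here. Values deposited by the authors are a normalised signal, reads per gene scaled by a size factor for each library, per the file headers and the values: all 187378 values above 0 came out as whole reads within 0.01 reads. The authors' deposited table also gives group means, fold changes and adjusted p-values. Of 45836 gene entries, 45373 (98.99%) matched the WBcel235 annotation, used for names, neighbours and exon lengths. Another 5 entries that name no gene were left out.

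A count test had been planned as the main test, but the deposited values were normalised, so limma 3.58.1 (R 4.3.3, trended and robust) was run on log2(value + 1). Fold changes are on that scale and understate those of genes with few reads. Genes needed a value of 10 in at least 4 of the 12 libraries. All 12 libraries entered the fit, and p-values were adjusted over 11345 genes by Benjamini-Hochberg at 0.05. edgeR 4.0.16 and DESeq2 1.42.0 were run on the recovered reads as alternatives. In 2 added alternatives a lowess trend (span 0.3) on exon length was taken out of each library. Scripts were tested on simulated data.

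Genes were named if they were targets or their neighbours, or were called (up to 15 a direction), filling up with the lowest p among genes without overlap and with a log2 fold change of at least 1, plus the 2 lowest p of each list. Members and lists were chosen with earlier results of these data known. Nothing shows how the pools of a group were kept separate beyond the series' word, so p-values measure the spread between libraries.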

Additional observations from a re-analysis of the deposited data

Results flagged for a closer look

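In 17 of 224 groups of 4 libraries, 1 library stood apart from the others by Dixon's ratio at its 95% critical value, which chance gives in about 1 in 20 groups. Under P granule RNAi, library orig had 106 normalised reads of Y45F10C.6 where the others had 81.3 to 83.7, 2069 of sid-1 where the others had 1355 to 1435, 2400 of T20D3.11 where the others had 1162 to 1187, and 7008 of pbs-4, a proteasome gene, where the others had 9154 to 9498. The mitochondrial ribosomal protein list had a mean log2 level of 10.42 in that library and 10.79 to 10.85 in the others. P granule RNAi library 1 had a mean log2 level of 5.76 for the small sperm protein families, where the others had 6.85 to 6.98, and of 7.39 for the histones, where the others had 6.62 to 6.69.

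In EV, library 3 had 5344 normalised reads of glh-4 where the others had 7620 to 7987, 786 of F23A7.4 where the others had 1330 to 1470, 212 of Y73B3A.10 where the others had 309 to 321, and 1.98 of the collagen gene col-45 where the others had 8.94 to 11.5. EV library 2 had 9.0 of Y57G11C.499 where the others had 11.4 to 11.9, and 2.0 of str-148 where the others had 0. EV library orig had 1.62 of str-68 where the others had 0, and a mean log2 level of 7.36 for the somatic gonad list where the others had 7.76 to 7.82. EV library 1 had 1270 of the protease gene asp-6 where the others had 547 to 588. The oogenesis list had a mean log2 level of 13.85 in EV library 2 and 13.60 to 13.64 in the others.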

How the results depend on the processing

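The 7 genes called between P granule RNAi and EV numbered 92 by DESeq2, 4 without the 3 libraries named orig, and 6 to 194 when single libraries were left out, where 194 came without csr-1 RNAi library 3 and the others gave 6 or 7. The 1383 genes without overlap numbered 3708 without the libraries named orig, 709 with the length trend taken out and 1513 to 3030 when single libraries were left out. The 1080 genes that differed from csr-1 RNAi numbered 503 when only the groups compared were fitted, 411 without the libraries named orig, 2039 with the length trend and csr-1 RNAi library 3 taken out, and 565 to 1984 when single libraries were left out. rpl-39 turned to −0.03 with the length trend taken out, and the cause was not tested. With replicate names as a block, 6 genes were called between P granule RNAi and EV, without timm-17B.2. The correlation of same-named deviations was 0.52 for orig, −0.15 for 1, −0.40 for 2 and 0.36 for 3. Values for differently named libraries are not given, so these do not settle whether the names pair the samples.

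Depth was 18.4 to 31.9 M reads a library, which limits the genes of few reads most.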
